A study of Homo sapiens with 4 samples.

Results

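DEAD box and DEAH box proteins are RNA helicases, and 49 of their genes, 34 with a DDX and 15 with a DHX symbol, were followed here among the 13246 genes whose average over the libraries exceeded 1 FPKM. FPKM counts the fragments mapped to a gene, per length of its transcript and per total of mapped fragments. The members were taken by symbol. Of 61 symbols of the form DDX or DHX with a number, 7 belonged to DDX11L pseudogenes and 5 genes (DDX4, DDX25, DDX43, DDX53 and DHX58) had an average of at most 1 FPKM. The gene nearest to the limit from outside was DHX58, at an average of 0.470 FPKM, and the members nearest to it were DDX58 at 1.46 and DDX60 at 1.62 FPKM.

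The study asked how TXNDC9, a thioredoxin domain protein, acts in liver cancer cells. Polyadenylated RNA of wild-type cells and of cells with a TXNDC9 knockout, made with a lentiviral CRISPR-Cas9 vector, was sequenced in 2 libraries each. All 4 libraries are labelled HepG2, a line from a human liver cancer grown in medium with serum. The methods name 2 guides but not which of them, nor whether a clone or a pool of cells, gave the knockout libraries, and they do not describe separate cultures. Figure legends of the study mention independent experiments for RNA-seq, in a number that differs from the libraries analysed here. Each p-value thus measures the spread between libraries, which may be technical.

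Hepatocyte genes were at or near 0 in all 4 libraries, against the label. None of 10 such markers had an average above 1 FPKM, the highest value was 0.449 FPKM for AFP in a wild-type library, and their summed level was 0.194 to 0.733 FPKM per library. ALB, the gene of albumin, was listed at 0.0260 FPKM in 1 wild-type library and at 0 in the others, and APOA1 was listed at 0 in all. Of 4 leukocyte markers 0, of 3 endothelial markers 1 (CDH5) and of 4 fibroblast markers 2 (COL1A1 and COL3A1) had an average above 1 FPKM. Summed levels in the wild-type and knockout libraries were 0.272 and 0.575 against 0.271 and 0.264 FPKM for leukocyte markers, 0.803 and 1.22 against 4.41 and 3.42 FPKM for endothelial markers, and 51.7 and 47.7 against 34.4 and 30.9 FPKM for fibroblast markers. The part of these differences in the results below was not tested.

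TXNDC9 itself was listed at 35.1 and 37.3 FPKM in wild-type cells, against 21.9 and 27.6 FPKM after the knockout. Its log2 fold change was -0.55 (SE 0.14, adjusted p 0.0145, limma), past neither threshold used here, and it was 0.12 after rescaling each library to TPM. The study reported reduced TXNDC9 protein in its knockout cells by western blot, and these RNA values do not measure protein. The summed FPKM over all genes was 805816 and 971102 in the wild-type libraries but 535973 and 568279 in the knockout libraries, and the 100 highest genes held 32.1% and 34.6% against 25.3% and 25.9% of it. The median log2 fold change of all genes tested was -0.09 on the deposited scale and 0.59 after rescaling to TPM, a shift of 0.67, so each change reported below is relative to the deposited scale.

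DEAD and DEAH box proteins share a core of paired RecA-like domains that binds RNA and ATP. DEAD box proteins pry short duplexes apart or hold RNA, while DEAH box proteins move along a single strand, and several of them are switched on by proteins with a G-patch. They act at nearly every step of RNA life, from ribosome assembly in the nucleolus through splicing and export to translation, decay and the sensing of viral RNA.

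The family takes its name from motif II of the ATPase core, the residues that hold the magnesium ion of ATP. Translating the coding sequence of each canonical transcript (GENCODE release 44, hg38) gave the letters DEAD in 25 members, DEAH in 9, DEVH in 6, DECD in 2 (DDX39A and DDX39B), DEVD in 2 (DDX21 and DDX50), DEIH in 2 (DHX9 and DHX36), DESD in 1 (DDX52), DECH in 1 (DDX58) and no such motif in DHX32. DDX11, a DNA helicase named as a DDX gene, had the letters DEAH. The coding bases around motif II are shown for the 10 members that passed both thresholds in the comparison below and for DDX41, 5′ to 3′ on the coding strand, with the 12 bases of the motif in capitals.
DDX54: gtggtgttcGATGAAGCTGACcggcttttt
DDX10: ttagttcttGATGAAGCAGATagaatcttg
DDX39B: tttattttgGATGAATGTGATaagatgctt
DDX49: ctggtgatgGATGAGGCAGACcggctgctg
DHX34: ctgattgtgGATGAAGTCCATgagcggcat
DDX3X: ttggtgttaGATGAAGCTGATcggatgttg
DDX6: atagtattgGATGAGGCAGATaagttgctg
DDX17: cttgtattgGACGAAGCTGACagaatgctt
DDX21: gttgtcctgGATGAAGTGGACcagatgttg
DHX40: attattttgGATGAAGCCCATgaaagaact
DDX41: ctggccctgGACGAGGCTGACcgcatgatc
The motif of DDX54 lies at chr12:113176842-113176853 on the minus strand, that of DDX10 at chr11:108679376-108679387 on the plus strand and that of DDX39B at chr6:31536519-31536530 on the minus strand. DDX49 has it at chr19:18922332-18922343 and DHX34 at chr19:47355168-47355179, both on the plus strand. DDX3X has it at chrX:41345193-41345204, DDX21 at chr10:68967128-68967139 and DHX40 at chr17:59573206-59573217, all on the plus strand. DDX17 has it at chr22:38494943-38494954 and DDX41 at chr5:177513742-177513753, both on the minus strand, and in DDX6, on the minus strand, an intron splits it between chr11:118760039 and chr11:118763217. All of these bases are in coding exons. Lower members thus carried DEAD, DECD or DEVH, and higher members DEAD, DEVD or DEAH.

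The knockout libraries held some of the 49 genes at a lower and others at a higher level than the wild-type libraries. Changes were tested with limma on log2(FPKM + 0.1), which understates the change of low genes, and a gene is said to have fallen or risen at an adjusted p under 0.01 over all 13246 genes. With a 2-fold change required as well, 5 members were lower (DDX54, DDX10, DDX39B, DDX49 and DHX34), which is 10.2% of members against 15.3% of all genes tested. Another 5 were higher (DDX3X, DDX6, DDX17, DDX21 and DHX40), again 10.2% against 14.2% of all genes. By the adjusted p alone 13 members fell, 26.5% against 27.1% of all genes, and 11 rose, 22.4% against 23.7%. These shares lay near or below those of all genes, and their difference was not tested. The median log2 fold change was -0.31 over the members and -0.09 over all genes.

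Both knockout values lay below both wild-type values in 25 members, 51.0% against 45.9% of all genes, and above them in 16, 32.7% against 40.1%. In 8 members the groups overlapped: DDX60L, DHX8, DDX23, DDX42, DDX11, DHX32, DDX1 and DHX35. With 2 libraries a side, the smallest p of an exact permutation test is 0.33, and single genes were not tested that way. Without either knockout library, limma called 0 members and 0 of all genes, and the smallest adjusted p over all genes was 0.0160 without replicate 1 and 0.0232 without replicate 2. The median log2 fold change of the members was -0.25 without knockout replicate 1 and -0.31 without knockout replicate 2. It was -0.31 without wild-type replicate 1 and -0.24 without wild-type replicate 2. In the latter fit DDX21 and DHX40 had log2 fold changes of 0.96 and 0.92, just under 2-fold.

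**Figure D1:**
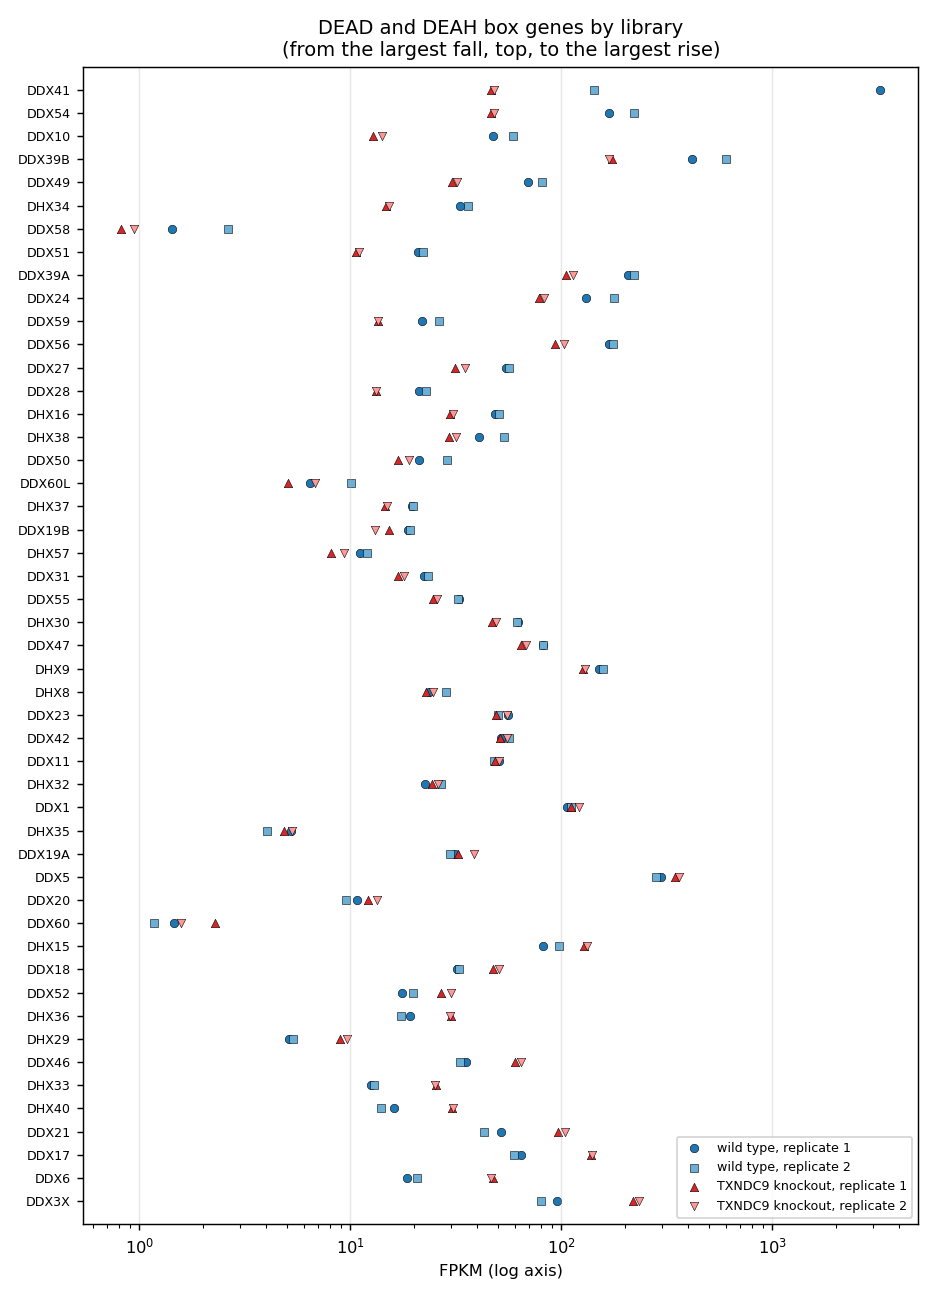
FPKM of the 49 DEAD and DEAH box genes in each library (log axis), ordered from the most negative log2 fold change at the top to the most positive at the bottom; blue points are the 2 wild-type and red points the 2 knockout libraries. The knockout points lie left of both wild-type points in 25 genes and right of them in 16, and 1 wild-type value of DDX41 stands at 3257 FPKM, far from the other.

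Genes for processing of the small subunit rRNA moved both ways. This group holds 6 members, of which 2 fell, 2 rose and 2 did not pass, where 27.1% of all genes fell and 23.7% rose. The median log2 fold change of the group was -0.36, and it was -0.20 after correction for transcript length and GC content. DDX10, which acts in the particle that first processes the small subunit rRNA, stood at 47.7 and 59.2 FPKM in wild-type cells against 12.8 and 14.2 FPKM after the knockout. The groups were far apart, and the log2 fold change was -1.97 (SE 0.14, adjusted p 0.000512). DDX49, a nucleolar helicase of the same pathway, stood at 69.4 and 80.6 against 30.2 and 32.2 FPKM. It fell by 1.26 on the log2 scale (SE 0.12, adjusted p 0.000650). DDX21, which couples transcription of rRNA genes to rRNA processing, went the other way, from 51.5 and 42.7 to 96.4 and 104 FPKM. Every knockout value exceeded both wild-type values by a wide margin, with a log2 fold change of 1.09 (SE 0.13, adjusted p 0.00111). After correction for transcript length and GC content the change was 0.45, at adjusted p 0.0213.

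DDX52 rose less, from 17.5 and 19.7 to 26.8 and 29.8 FPKM (log2 fold change 0.60, adjusted p 0.00546), but its change was -0.25 after correction for transcript length and GC content. DDX47, which had the highest average in the group, stood at 82.2 and 81.7 against 64.1 and 68.1 FPKM. DHX37, which releases a small nucleolar RNA from the maturing subunit, stood at 19.7 and 19.9 against 14.7 and 14.9 FPKM. The groups of both genes did not overlap, and neither passed, at adjusted p 0.0366 and 0.0102.

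Genes for the large subunit rRNA were mostly lower. Of 9 members 5 fell, 1 rose and 3 did not pass, or 55.6% and 11.1% beside 27.1% and 23.7% of all genes. A negative change was found in 8 of 9, beside 53.4% of all genes, with a median of -0.75, which was -0.07 after rescaling to TPM and -0.56 after the correction for length and GC content. DDX54, a nucleolar helicase of the early large subunit particle, was the most reduced of the members that passed both thresholds. It stood at 167 and 221 FPKM in wild-type cells against 46.6 and 47.7 FPKM after the knockout, a log2 fold change of -2.03 (SE 0.16, adjusted p 0.000538) or 4.07-fold. DDX51, which helps to free a small nucleolar RNA from the particle, stood at 21.0 and 22.05 against 10.6 and 11.0 FPKM. At 1.98-fold (adjusted p 0.000738) it lay just under the 2-fold limit.

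DDX24 (131 and 178 against 77.9 and 82.8 FPKM), DDX56 (169 and 176 against 93.7 and 103 FPKM) and DDX27 (54.4 and 56.8 against 31.2 and 35.1 FPKM) also fell, at adjusted p 0.00457, 0.00185 and 0.00204. All are nucleolar large subunit factors, and their log2 fold changes were -0.92, -0.81 and -0.75. After the correction for length and GC content DDX56 no longer passed, at -0.23 and adjusted p 0.0469. DDX18 was the exception in the group, at 31.9 and 32.9 against 47.4 and 50.9 FPKM (log2 fold change 0.60, adjusted p 0.00330), and its change was 0.11 after that correction. DDX31, DDX50 and DDX55 had log2 fold changes of -0.39, -0.46 and -0.37 and did not pass. After that correction these were -0.64, -0.54 and -0.41, and DDX31 and DDX55 passed, at adjusted p 0.00254 and 0.00876 (limma). DDX55 shares 538 exon bases with EIF2B1 on the other strand, and reads of such genes cannot be told apart without strand.

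Over both rRNA groups, 7 of 15 members fell and 3 rose (46.7% and 20.0%), beside 27.1% and 23.7% of all genes. Their median log2 fold change was -0.46, which was 0.22 after rescaling to TPM and -0.41 after the correction for length and GC content. Over the other 34 members, 6 fell and 8 rose (17.65% and 23.53%), with a median of -0.01 that was -0.23 after that correction. These differences were not tested. The summed FPKM of the 15 rRNA members was 938 and 1074 in the wild-type and 611 and 657 in the knockout libraries. As a share of each library's summed FPKM, these were 0.116% and 0.111% against 0.114% and 0.116%, values that overlap.

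Of the mitochondrial members, DDX28, which assembles the large subunit of the mitochondrial ribosome, fell from 21.1 and 22.7 to 13.2 and 13.2 FPKM (log2 fold change -0.73, adjusted p 0.00169), and after the correction for length and GC content its change was -0.32 at adjusted p 0.0208. It is an intronless gene with 1 exon. DHX30, found in mitochondrial RNA granules, stood at 62.0 and 61.8 against 47.0 and 48.8 FPKM and did not pass, at adjusted p 0.0176.

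Of 10 splicing helicases 2 fell (20%), 1 rose (10%) and 7 did not pass. Of all 13246 genes tested, 27.1% fell, 23.7% rose and 6514 did not pass. The median log2 fold change of the 10 was -0.08, and it was -0.39 after the correction for length and GC content. DDX39B, which loads the branch site machinery onto introns and also serves mRNA export, stood at 415 and 605 FPKM in wild-type cells against 173 and 168 FPKM after the knockout. Its log2 fold change was -1.56 (SE 0.20, adjusted p 0.00137). All of its 1681 transcript bases also lie in exons of the readthrough gene ATP6V1G2-DDX39B, which was listed at 65.2 and 49.8 against 9.62 and 18.1 FPKM, so reads could have been split between them.

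DHX16, which prepares the spliceosome for the first step of splicing, fell from 48.5 and 50.8 to 29.6 and 30.7 FPKM (log2 fold change -0.72, adjusted p 0.00165). DDX46, which acts when the branch site is first recognised, rose from 35.2 and 33.0 to 59.999 and 64.3 FPKM (log2 fold change 0.86, adjusted p 0.00111), and its change was 0.05 after the correction for length and GC content. DHX15, which takes apart spent and faulty spliceosomes, stood at 81.8 and 97.1 against 128 and 133 FPKM, and its adjusted p of 0.0108 lay just outside the threshold. The later-acting DHX38 stood at 40.6 and 53.2 against 29.3 and 31.7 FPKM (adjusted p 0.0149). DHX8, DDX23, DDX42 and DHX35 had log2 fold changes between -0.12 and 0.14, and in each the groups overlapped.

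DDX41, a helicase of the late spliceosome that is mutated in familial myeloid leukaemia, held the largest difference and the poorest replication of the family. It stood at 3257 FPKM in wild-type replicate 1 and 143 FPKM in wild-type replicate 2, with knockout values of 46.3 and 47.8 FPKM. The wild-type values differed 22.7-fold, while the largest wild-type gap of any other member was 1.85-fold (DDX58) and the largest knockout gap of any member 1.45-fold (DDX60). The log2 fold change was -3.86 with a standard error of 1.34 and did not pass, at adjusted p 0.0446. Without wild-type replicate 1 it was -1.61 (adjusted p 0.000132), and without wild-type replicate 2 it was -6.11 (adjusted p 7.78e-05). Each of these fits had 1 wild-type library, assumed to vary as the knockout libraries did.

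In wild-type replicate 1 DDX41 was the gene of rank 22 by FPKM and held 0.404% of the library's sum, against rank 1101 in wild-type replicate 2 and ranks 2177 and 2230 in the knockout libraries. On log2(FPKM + 0.1), 31 of the 13246 genes had a larger gap between the wild-type libraries, and 0 of these were among the 1232 genes with an average above 100 FPKM. DDX41 occupies 177511577 to 177516961 of chromosome 5 (hg38, minus strand), and no other annotated gene overlaps it. Its neighbours did not share the gap. DOK3, downstream of it, stood at 7.61 and 7.24 FPKM in the wild-type libraries, FAM193B, upstream of it, at 36.9 and 45.9 FPKM, and PDLIM7 at 120 and 138 FPKM. All 3 were lower in both knockout libraries, at 2.40 and 4.19, 13.3 and 14.9, and 42.4 and 45.6 FPKM.

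**Figure D2:**
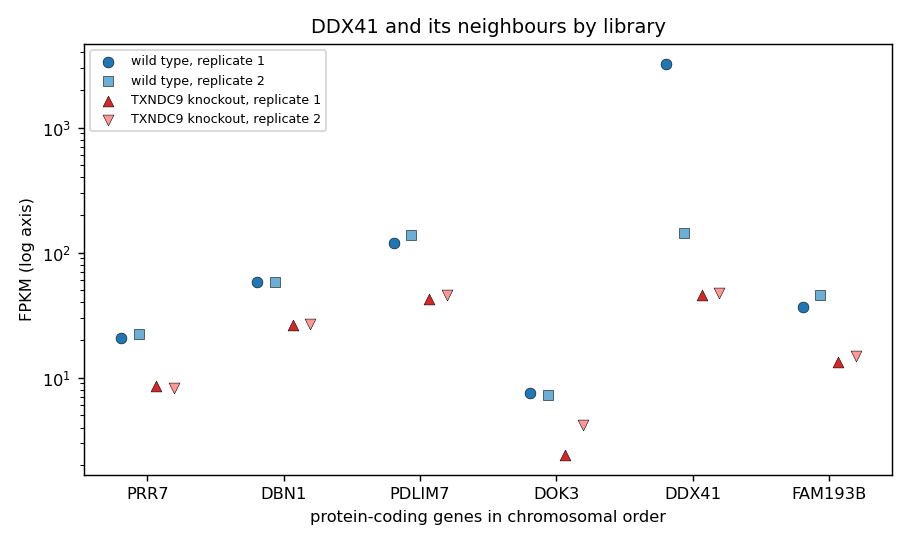
FPKM (log axis) of DDX41 and the protein-coding genes beside it, in chromosomal order, with 1 point per library. In wild-type replicate 1 DDX41 stands at 3257 FPKM against 143 FPKM in wild-type replicate 2, while the wild-type points of each neighbour lie close together.

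Without DDX41, the summed FPKM of the family was 2980 and 3338 in the wild-type and 2585 and 2715 in the knockout libraries. As a share of the library's summed FPKM the order turned, with 0.370% and 0.344% in the wild-type and 0.482% and 0.478% in the knockout libraries.

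Of the 5 transcription and RNA processing coregulators, 1 rose (20%, beside 23.7% of all genes) and 4 did not pass. DDX17, a coregulator of nuclear receptors that also acts in microRNA processing, stood at 64.1 and 59.8 FPKM in wild-type cells against 138 and 140 FPKM after the knockout. The log2 fold change was 1.17 (SE 0.10, adjusted p 0.000607). Its partner DDX5, among the most abundant members, stood at 297 and 281 against 347 and 361 FPKM, a log2 fold change of 0.29 at adjusted p 0.0809. DHX9, a helicase that resolves RNA and DNA hybrids, stood at 151 and 157 against 126 and 129 FPKM (adjusted p 0.0665). After the correction for length and GC content DHX9 passed as lower, at -0.78 and adjusted p 0.00132 (limma). DDX1 and DDX20, the latter a subunit of the SMN complex, had log2 fold changes of 0.09 and 0.32 and did not pass.

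Among the 3 members for mRNA export, DDX39A fell from 206 and 221 to 105 and 114 FPKM (log2 fold change -0.97, SE 0.12, adjusted p 0.00112), a change of -0.23 at adjusted p 0.0451 after the correction for length and GC content. DDX19A and DDX19B, which strip export proteins from mRNA at the nuclear pore, stood at 31.2 and 29.6 against 32.3 and 38.7 FPKM and at 18.8 and 19.1 against 15.3 and 13.1 FPKM. Their changes had opposite signs, 0.22 and -0.42, and neither passed, at adjusted p 0.171 and 0.0206.

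Helicases of translation, mRNA storage and decay were mostly higher. All 5 members passed by the adjusted p, of which 4 rose and 1 fell, where 23.7% of all genes rose and 27.1% fell. Their median log2 fold change of 0.82 became 0.18 after the correction for length and GC content. The median length of their transcripts was 4664 nt, and all genes over 4500 nt had a median change of 0.67. DDX3X, which helps ribosomes through structured leaders and is the most abundant of the group, stood at 95.0 and 79.8 FPKM in wild-type cells against 219 and 233 FPKM after the knockout. Its log2 fold change of 1.38 (SE 0.13, adjusted p 0.000676) was the most positive of the family. DDX6, a repressor of translation and core protein of P-bodies, rose from 18.5 and 20.7 to 47.6 and 46.2 FPKM (log2 fold change 1.26, SE 0.11, adjusted p 0.000572). The groups stood far apart in both genes, but after the correction DDX6 no longer passed, at 0.43 and adjusted p 0.0125.

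DHX29, which assists scanning ribosomes, stood at 5.11 and 5.37 against 8.97 and 9.67 FPKM, and DHX36, which unwinds G-quadruplexes, at 19.2 and 17.4 against 30.0 and 29.6 FPKM. Both rose under 2-fold, at adjusted p 0.00181 and 0.00213, but after the correction for length and GC content the change of DHX29 was 0.18 and that of DHX36 was -0.23, and neither passed. DHX34, a factor of nonsense-mediated decay, was the member of this group that fell, from 33.1 and 35.96 to 14.8 and 15.3 FPKM. Its log2 fold change was -1.19 (SE 0.10, adjusted p 0.000572).

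RNA sensing members were low or moderate in level. DHX33, which has been described both as a sensor of double-stranded RNA and in rRNA synthesis, rose from 12.6 and 12.98 to 25.5 and 25.1 FPKM, at 1.97-fold (adjusted p 0.000701). DDX58, which encodes the viral RNA sensor RIG-I, stood at 1.43 and 2.64 against 0.820 and 0.945 FPKM and did not pass (adjusted p 0.0410). Its relative DHX58, below the limit for testing, stood at 0.414 and 1.03 against 0.227 and 0.211 FPKM. The antiviral factors DDX60 (1.46 and 1.17 against 2.27 and 1.57 FPKM) and DDX60L (6.43 and 10.1 against 5.04 and 6.79 FPKM) did not pass either. After the correction for length and GC content the changes of DHX33, DDX58, DDX60 and DDX60L were 0.53, -1.70, -0.35 and -1.38. Of these DHX33 and DDX60L passed, at adjusted p 0.00490 and 0.00802 (limma), and DDX58 did not, at 0.0117. The median of the group was 0.02 before and -0.87 after that correction.

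DDX11, a DNA helicase of sister chromatid cohesion, did not pass, at 50.6 and 48.0 against 48.4 and 50.5 FPKM (log2 fold change 0.0041, SE 0.10). Among the 4 less characterised members, DHX40 rose from 16.1 and 14.0 to 30.5 and 30.7 FPKM (log2 fold change 1.02, SE 0.11, adjusted p 0.000906). DDX59, linked to ciliary disorders, fell from 21.7 and 26.4 to 13.5 and 13.5 FPKM (adjusted p 0.00239). DHX57 stood at 11.1 and 11.9 against 8.06 and 9.29 FPKM and DHX32 at 22.7 and 27.0 against 24.3 and 26.1 FPKM. Neither passed on the deposited scale. After the correction for length and GC content DHX57 passed as lower, at -0.96 and adjusted p 0.00199 (limma), and the change of DHX32 was -0.23. DHX32, the member without a motif II, shares 215 exon bases with BCCIP on the other strand, at 71.9 to 118 FPKM.

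**Figure D3:**
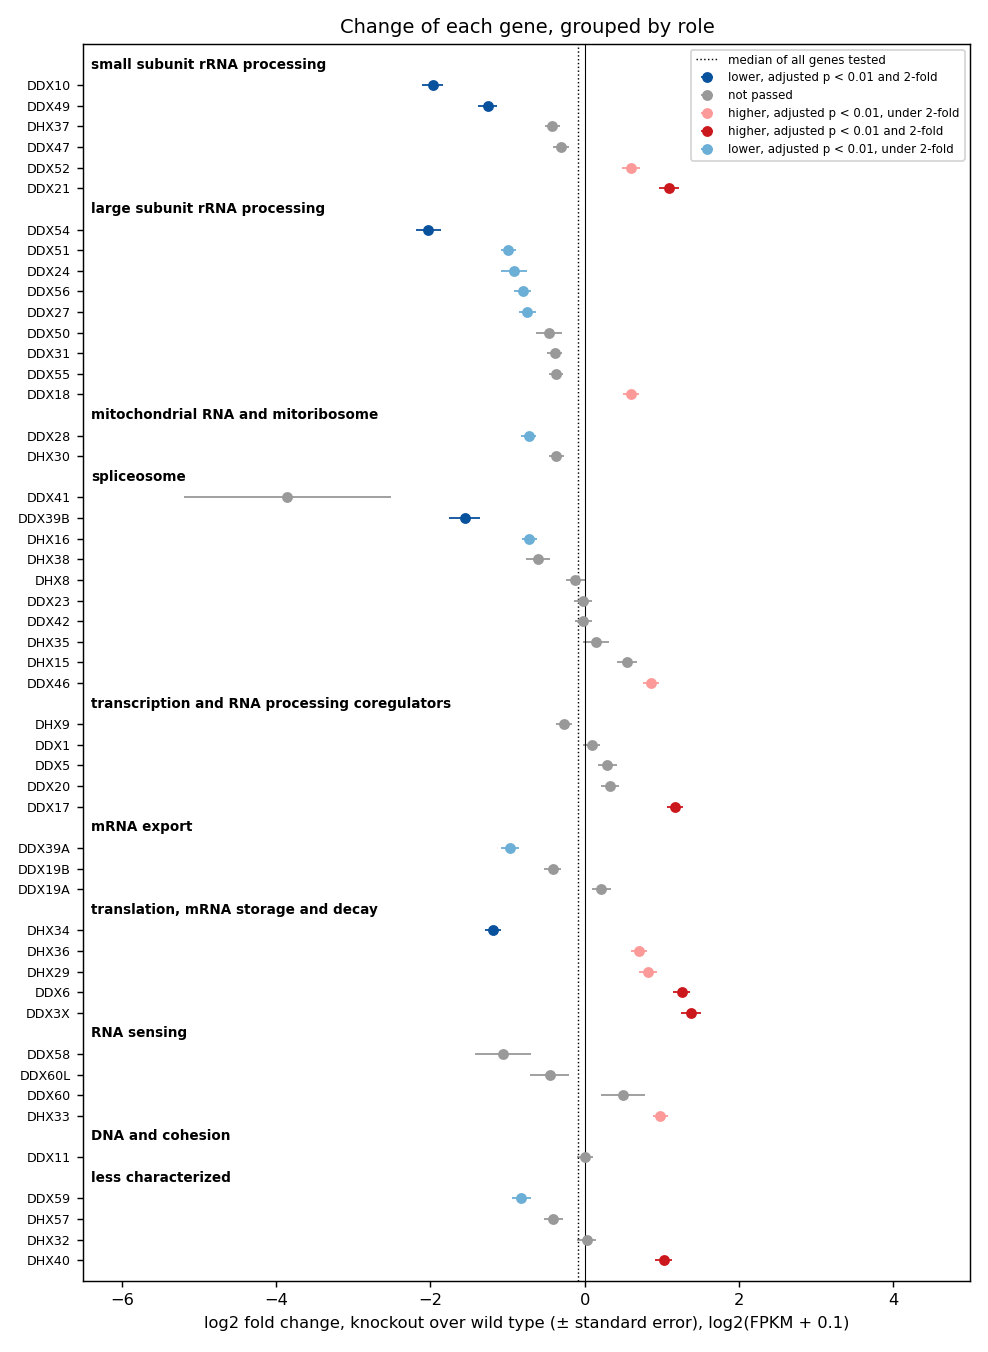
Log2 fold change of each member (knockout over wild type, log2(FPKM + 0.1), with the standard error from 4 libraries), grouped by role, with the median of all genes tested (-0.09) as a dotted line. Large subunit rRNA genes lie mostly to the left and translation and decay genes mostly to the right on this scale, with medians of -0.75 and 0.82 that were -0.07 and 1.495 after rescaling to TPM.

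Several members have a close relative in the family, and the values of such relatives can be set side by side. DDX39A and DDX39B, 79.8% identical over their aligned coding bases, both fell. DDX5 and DDX17 (57.9% identical) differed in that DDX17 passed and DDX5 did not, with log2 fold changes of 1.17 and 0.29. DDX21 and DDX50 (64.0% identical) lie 9287 bases apart on chromosome 10, and their log2 fold changes were 1.09 and -0.46. DDX60 and DDX60L (76.3% identical) lie 37851 bases apart on chromosome 4, at 0.50 and -0.45. The differences within these pairs were not tested. DDX19A and DDX19B, 95.1% identical and 11555 bases apart on chromosome 16, are near enough in sequence that reads could have been split between them, so their values are uncertain.

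The changes went with the length and base composition of the transcripts. Across the 49 members, Spearman's rho between the log2 fold change and the length of the canonical transcript was 0.44, and between the change and the GC content -0.62, against 0.49 and -0.46 across the 13112 genes tested that have a length. Genes of 1 comparison share its 4 libraries and are not independent replicates, so these are descriptions. Of the 20 members of at most 3500 nt, 15 had a negative change, with a median of -0.59, beside 70.5% negative and a median of -0.48 for all genes of that length. Of the 12 members of 3500 to 4500 nt, 7 had a negative change, with a median of -0.14, beside 37.7% negative and a median of 0.26 for all genes. Of the 17 members over 4500 nt, 7 had a negative change, with a median of 0.60, beside 23.6% negative and a median of 0.67 for all genes. These differences between members and all genes were not tested. The 5 called lower members had a median length of 3217 nt and GC content of 60.6%, and the 5 called higher members 4664 nt and 40.2%.

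**Figure D4:**
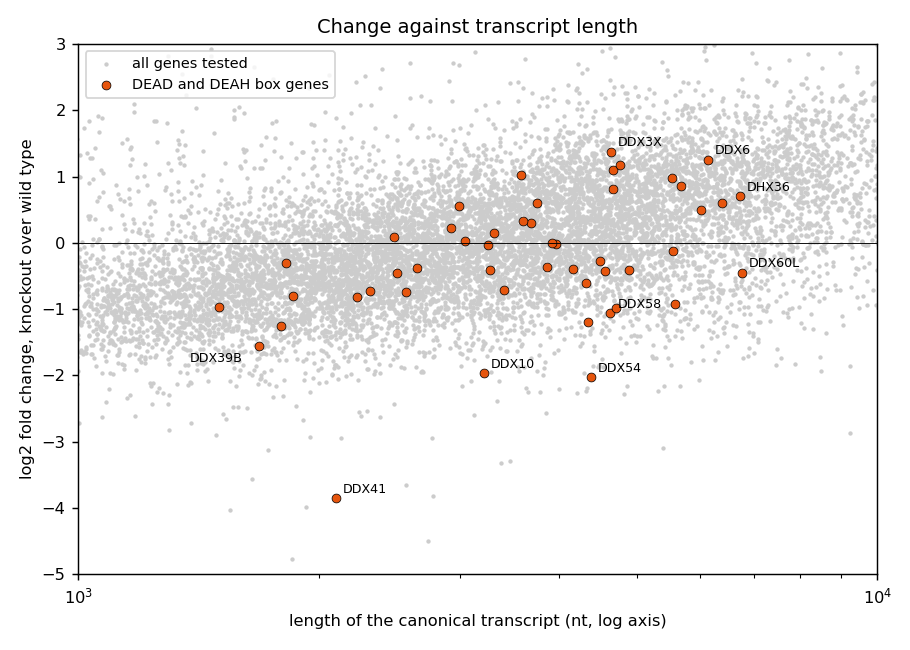
Log2 fold change (knockout over wild type) against the length of the canonical transcript (nt, log axis), with all tested genes in grey and the 49 members in orange; 2318 genes outside the axes are not drawn. Changes increase with length in the grey genes and in the members on the deposited scale, and DDX54, DDX10 and DDX41 lie below most genes of their length.

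Rescaling and correction moved these calls. When each library was corrected for its trend with transcript length and GC content, 42 of 49 members kept the sign of their change, but the called members became DDX10, DDX24, DDX39B, DDX54 and DDX60L, all lower, and 0 higher. Over the 13112 genes of this fit, 969 were called lower and 841 higher. At an unadjusted p under 0.05 in limma, 34 members and 8133 of all genes passed in it. DDX54, DDX10 and DDX39B were called before and after, at -1.77, -2.23 and -1.15 after the correction. By the adjusted p, 10 of the 13 members that fell and 4 of the 11 that rose still passed in that direction. The 4 were DDX3X, DDX17, DHX33 and DHX40, with corrected log2 fold changes of 0.75, 0.67, 0.53 and 0.59. DDX6 (0.43, adjusted p 0.0125), DDX21 (0.45, adjusted p 0.0213), DDX18 (0.11), DHX29 (0.18), DDX46, DDX52 and DHX36 no longer passed. Nor did DDX39A, DDX56 and DDX28 among the members that fell. Other members passed as lower only after the correction: DHX9 (-0.78), DHX57 (-0.96), DDX31 (-0.64), DDX60L (-1.38) and DDX55 (-0.41). Their adjusted p in limma was 0.00132, 0.00199, 0.00254, 0.00802 and 0.00876. The share of all genes passing by the adjusted p alone in this fit is not given here. Rescaled to TPM, 35 of 49 members kept their sign, 15 instead of 29 were negative, and 2 were called lower (DDX54 and DDX10) and 13 higher. Over all genes the same rescaling turned 2021 lower and 1885 higher calls into 447 and 4380.

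**Figure D5:**
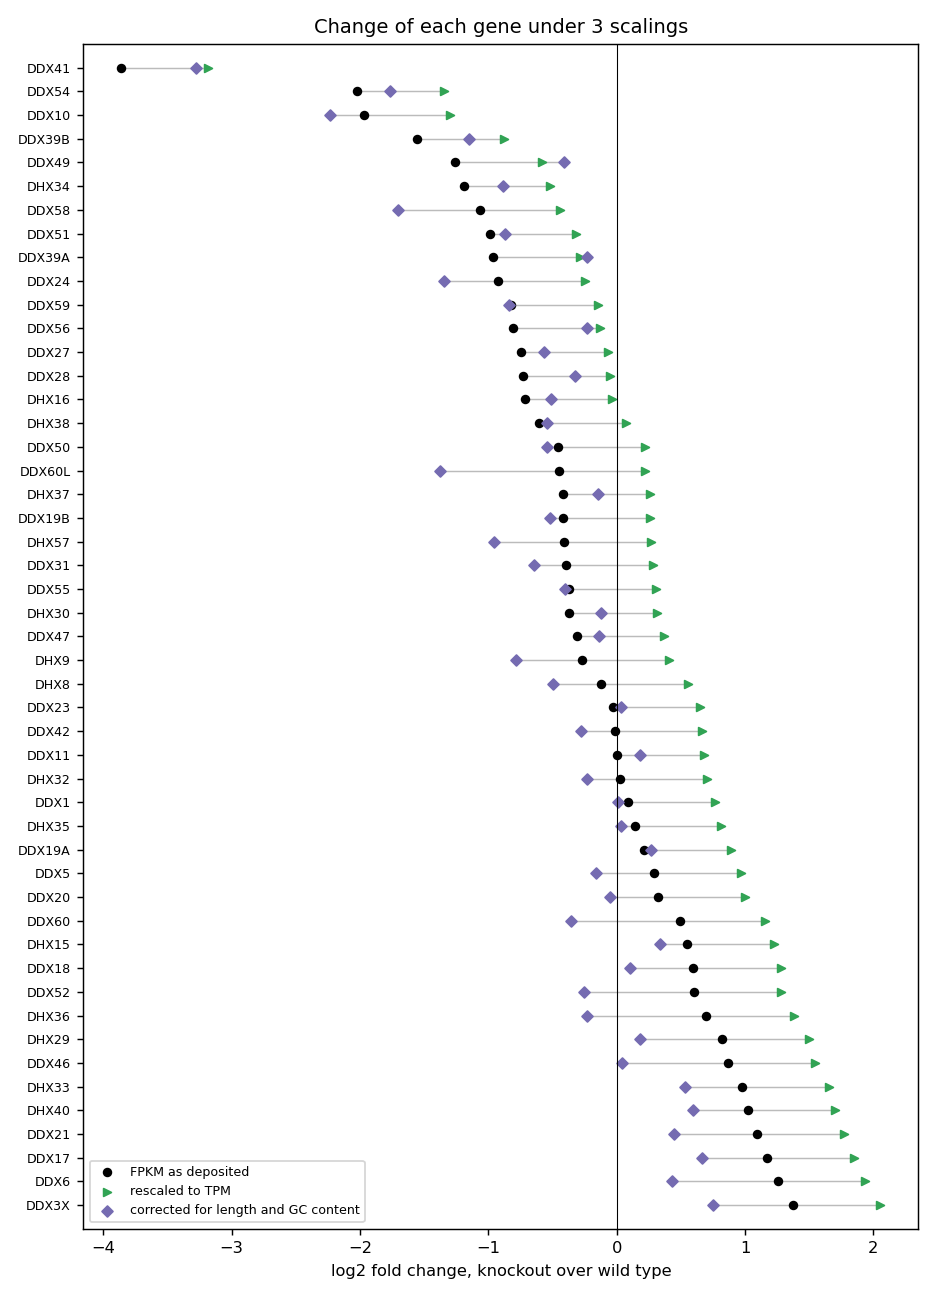
Log2 fold change (knockout over wild type) of each member under 3 scalings, FPKM as deposited (black circles), rescaled to TPM (green triangles) and corrected for length and GC content (purple diamonds), in the order of the deposited scale. Rescaling to TPM moves every gene to the right, so that 15 members remain negative. DDX54, DDX10 and DDX41, the last of which did not pass, stay below -1 under all 3.

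Members were also compared by the form of motif II. Of the 30 members whose motif ends in D, 11 fell and 7 rose (36.7% and 23.3%), with a median log2 fold change of -0.38. Of the 18 whose motif ends in H, 2 fell and 4 rose (11.1% and 22.2%), with a median of -0.20. Of all genes 27.1% fell and 23.7% rose, and both medians were positive after rescaling to TPM, at 0.30 and 0.48. After the correction for length and GC content they were nearly equal, at -0.27 and -0.29. The median transcript lengths of the sets were 3265.5 and 4526 nt. The difference between these sets was not tested.

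Because the study concerns the MYC network, the promoters were searched for the E-box CACGTG, the palindromic hexamer that MYC with MAX and several other factors can bind. RefSeq promoters (GRCh38.p14, 250 bases before to 50 after the start) were matched by symbol for 45 of the 49 members. Of these 8 held the hexamer (DDX54, DHX34, DHX37, DDX31, DHX32, DHX35, DDX5 and DHX40), or 17.8%, against 7.43% of all 27305 promoters and 10.5% of the 9677 promoters of genes tested. Among the 8 members with it, 4 had a negative change, and among the 37 without it 24 had one. The 250 bases before the start are shown for DDX54, which fell, and DHX40, which rose, with the E-box in capitals.
DDX54: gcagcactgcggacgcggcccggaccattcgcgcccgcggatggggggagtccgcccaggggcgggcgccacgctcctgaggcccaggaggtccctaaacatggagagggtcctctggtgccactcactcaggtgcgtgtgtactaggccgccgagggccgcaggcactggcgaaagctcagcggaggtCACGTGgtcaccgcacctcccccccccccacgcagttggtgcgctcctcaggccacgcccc
DHX40: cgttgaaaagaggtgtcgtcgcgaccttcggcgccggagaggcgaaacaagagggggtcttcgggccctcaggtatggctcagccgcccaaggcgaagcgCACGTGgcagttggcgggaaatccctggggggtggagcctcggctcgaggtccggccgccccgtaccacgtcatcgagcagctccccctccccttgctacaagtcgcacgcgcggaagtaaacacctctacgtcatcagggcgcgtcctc
The DDX54 stretch is chr12:113185479-113185728 on the minus strand, with the E-box 61 bases before the start, and the DHX40 stretch is chr17:59565360-59565609 on the plus strand, with the E-box 150 bases before it. In DHX37 the hexamer lies after the start. Of the 8 members with it, 2 were called lower, 1 was called higher and 5 did not pass, where 15.3% of all genes were called lower and 14.2% higher. A match is a description of letters and not of binding.

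Of 4 tested DEAD or DEAH box genes under other names, 1 rose and 3 did not pass, where 23.7% of all genes rose. The translation initiation helicase EIF4A1 stood at 1071 and 1180 FPKM in wild-type cells against 724 and 814 FPKM after the knockout (log2 fold change -0.55, SE 0.16, adjusted p 0.0266), and the change was 0.13 after rescaling to TPM. EIF4A3, a core of the exon junction complex, had -0.49 (adjusted p 0.0471) and EIF4A2 0.12 (adjusted p 0.360). YTHDC2, a DEAH-type helicase that reads methylated adenosine, rose from 8.44 and 7.80 to 19.1 and 18.4 FPKM (log2 fold change 1.20, adjusted p 0.000589). Its change was 0.36 after the correction for length and GC content.

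Of 75 listed relatives, cofactors and partners of the family, 72 were tested, and 26 fell and 13 rose by the adjusted p, which is 36.1% and 18.1% beside 27.1% and 23.7% of all genes. At 2-fold 13 were lower and 5 higher, 18.1% and 6.94% beside 15.3% and 14.2%. After the correction for length and GC content 11 were called lower and 1 higher, beside 969 and 841 of all genes. Neither these differences nor those of the lists below were tested. Among the 22 G-patch proteins, many of which bind and stimulate DEAH box helicases, 10 fell and 4 rose (45.5% and 18.2%). GPATCH8 rose from 4.97 and 3.75 to 15.7 and 16.3 FPKM (log2 fold change 1.86), and PINX1 fell from 19.9 and 26.3 to 9.83 and 11.3 FPKM (-1.11). After the correction their changes were 1.28 and -0.62. Among 16 other RNA helicases 6 fell and 3 rose (37.5% and 18.8%), led by HELZ at 2.01 and by SUPV3L1, of the mitochondrial RNA degradation complex, at -1.75 on the log2 scale. Corrected for length and GC content, the changes of HELZ and SUPV3L1 were 0.87 and -1.74.

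Among the 30 partners of DEAD box proteins 10 fell and 5 rose (33.3% and 16.7%, beside 27.1% and 23.7% of all genes), and the 7 called at 2-fold, 23.3% beside 15.3%, were all lower. The largest changes on the deposited scale were those of partners of DDX39B in mRNA export. ALYREF, the export adaptor, fell from 335 and 436 to 91.1 and 104 FPKM (log2 fold change -1.97, adjusted p 0.000574), and THOC6 from 67.0 and 78.6 to 26.4 and 28.1 FPKM (-1.41, adjusted p 0.000572). After the correction for length and GC content their changes were -1.14 and -0.51. Of the other subunits of the complex that holds THOC6, THOC7 and THOC3 were called lower as well, at -1.31 and -1.02. THOC1, THOC2 and THOC5 had log2 fold changes of -0.43, -0.26 and -0.23 and did not pass. With the correction THOC7 and THOC3 had -1.15 and -0.54, and THOC1, THOC2 and THOC5 had -0.47, -1.08 and -0.54. The exon junction partners MAGOH, MAGOHB and RBM8A fell, at -0.88, -1.04 and -1.40, while CASC3 and CWC22 had -0.10 and 0.22 and did not pass. Corrected, MAGOH, MAGOHB and RBM8A had -0.63, -1.32 and -1.97, and CASC3 and CWC22 had -0.23 and -0.19. Of the partners of DDX6, PATL1, EDC3 and EIF4ENIF1 rose, at 0.77, 0.49 and 0.58, while LSM14A, LSM14B and CNOT1 had 0.36, 0.02 and 0.07 and did not pass. After the correction PATL1, EDC3 and EIF4ENIF1 had 0.42, 0.52 and 0.50, and LSM14A, LSM14B and CNOT1 had 0.0093, 0.35 and -0.75.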

How the data were processed

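FPKM values per gene were deposited by the authors for 2 wild-type and 2 TXNDC9 knockout libraries. They had mapped reads to hg38 with TopHat2, ignoring new junctions, and quantified them with Cuffdiff of Cufflinks, with versions and strand setting not given in the sources used here. The table also holds averages, log2 fold changes, p-values and q-values of the authors, which were not used. It has 231916 lines, 57979 with values. Each identifier occurs 4 times and out of register with the symbols, so identifiers were put back in order. Of them 56935 are in GENCODE 44, which gave positions, canonical transcripts and GC content.

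The log2(FPKM + 0.1) values of genes averaging above 1 FPKM were fitted in limma 3.58.1 (R 4.3.3, trended prior variance, no replicate block) and Benjamini-Hochberg adjustment. A call needed a 2-fold change at an adjusted p under 0.01, limits taken from the study's methods. The FPKM steps of low genes showed no whole reads, so depth is unknown and no counting interval is given. Both groups carry replicate numbers 1 and 2, but same-numbered libraries did not deviate together (correlation -0.09). With 2 libraries a group, outlying libraries could not be tested for.

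The members and gene lists were chosen with earlier results of these data known. By rule, values were given for the 8 largest falls and 8 largest rises, the highest member of each role, close pairs, EIF4A1, EIF4A2, EIF4A3 and TXNDC9, and the 2 largest changes in each related list. Other members and partners were named for their role, after their values were seen. The alternatives tried were other pseudocounts (0.01 and 1), other filters (none, and an average above 5 FPKM), TPM, median centring, no trend, the replicate block, each library left out, and a loess correction (span 0.3) for length and GC content. The steps were tested on simulated data. Sequences were aligned with Biopython 1.88 and figures drawn with matplotlib 3.10.9, in Python 3.11.15 with scipy 1.17.1 and pandas 2.3.3.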

Additional observations from a re-analysis of the deposited data

How the results depend on the processing

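The 10 called members were called again with a pseudocount of 0.01, without the filter, with an average above 5 FPKM and without the trend, and 9 of them with a pseudocount of 1, where DHX40 was lost. With an average above 5 FPKM, 1220 of all genes were called higher. Rescaled to TPM, calls were 447 lower and 4380 higher over all genes, 2 and 13 over the members, and 2 and 23 over the relatives and cofactors, and the median change of the members was 0.37. Signs turned there for DHX38 (0.072), DDX50 (0.22), DDX60L (0.22), DHX37 (0.26), DDX19B (0.26), DHX57 (0.27), DDX31 (0.29), DDX55 (0.30), DHX30 (0.31), DDX47 (0.37), DHX9 (0.41), DHX8 (0.55), DDX23 (0.65), DDX42 (0.66), TXNDC9 (0.12), EIF4A1 (0.13) and EIF4A3 (0.19). Median centring gave 8 lower and 3 higher of the 49 members, beside 2601 lower and 1452 higher of all 13246 genes. The median of the members was -0.45 there, and signs turned for DDX11 (-0.14), DHX32 (-0.12), DDX1 (-0.055), DHX35 (-0.0014) and EIF4A2 (-0.022). The correction for length and GC content gave 969 lower and 841 higher calls over all genes, 0 higher members (limma, 34 of 49 at an unadjusted p under 0.05) and 1 higher relative, and turned DDX23 (0.036), DHX32 (-0.23), DDX5 (-0.16), DDX20 (-0.053), DDX60 (-0.35), DDX52 (-0.25) and DHX36 (-0.23). With the replicate block, same-numbered libraries being paired by number only, 6 members were called lower and 5 higher, DDX41 being the addition. Over all 13246 genes the block gave 2146 lower and 1960 higher calls. The correction with the block gave 975 lower and 841 higher calls over all genes, 0 higher members and 1 higher relative, with the same 7 changes of sign. Median centring and rescaling to TPM multiply each library by a constant or shift it as a whole, so their moves are common to all genes, 0.62 to 0.68 over the members for TPM. The cause of the other moves was not tested.

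With each library left out in turn, calls ranged from 0 to 2633 lower and 0 to 2136 higher over all genes, from 0 to 10 lower and 0 to 5 higher over the members, and from 0 to 16 lower and 0 to 6 higher over the relatives. The 0 came from leaving out either knockout library, where limma found 7129 and 7307 genes at an unadjusted p under 0.05. The changes ranged from -0.25 to 0.0023 for DHX8, -0.12 to 0.060 for DDX23, -0.081 to 0.048 for DDX42, -0.035 to 0.043 for DDX11, -0.10 to 0.15 for DHX32 and -0.046 to 0.33 for DHX35. Without wild-type replicate 1, DDX24, DDX39A, DDX41, DDX51 and DDX58 were called as well, and without wild-type replicate 2 DDX41 and DHX33 were added while DDX21 and DHX40 were lost. Depth is unknown, and the precision rests on 2 libraries a group.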
